A study of Mus musculus with 12 samples.

Results

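Knockout-labelled 4T1 cells were compared with wild-type 4T1 cells after docetaxel, over all genes counted. The comparison rests on 6 of the 12 libraries of the series, 3 per genotype, and was tested in 15538 of the 40406 genes of the count table. The line 4T1 is a mammary carcinoma line of BALB/c mice, labelled triple-negative, and the cells were labelled wild type or knockout for integrin beta 3, the product of Itgb3. All 6 libraries came from cultures on poly-L-lysine that received 10 nM docetaxel for 24 h and were harvested after a further 48 h without the drug. The other 6 libraries came from the same 2 genotypes given DMSO, the solvent, for 24 h with the same 48 h of recovery, and served to separate a genotype difference that persisted after the drug from one that was called only after it. How the knockout was made, and whether each line is 1 clone, is not stated in these sources. The labels describe biological triplicates, so the tests measure the spread between such cultures of 1 line per genotype. A difference between the lines cannot be told apart from a difference between 2 separately kept lines.

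Integrins are cell-surface receptors made of an alpha and a beta chain. Integrin beta 3 pairs with alpha v or alpha IIb and binds matrix proteins that carry the sequence arginine-glycine-aspartate, and the alpha v form takes part in adhesion, in activation of latent TGF-beta and in bone metastasis of mammary carcinoma. Docetaxel stabilises microtubules, arrests dividing cells in mitosis and leaves many survivors with missegregated or multiple nuclei. Cytosolic DNA in such cells can start an interferon response, whose target genes carry an interferon-stimulated response element (ISRE) in their promoters.

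Itgb3 was at 71.4, 60.1 and 66.1 CPM (a gene's count scaled to the TMM-adjusted size of its library) in wild-type cells given DMSO and at 62.4, 66.7 and 65 CPM in their knockout-labelled counterparts. The transcript therefore did not separate the genotypes under DMSO, and the cells are called knockout-labelled throughout. After docetaxel it was at 80.6, 88.7 and 80.0 CPM in wild-type and 59.3, 64.6 and 63.4 CPM in knockout-labelled libraries. The knockout-labelled libraries were the lower ones and the groups did not overlap, and the log2 difference (knockout-labelled minus wild type, as in all values below) was −0.41 ± 0.08 (SE; edgeR adjusted p = 0.00705). Without the drug it was −0.03 (edgeR adjusted p = 0.875), and the test of the change in this difference gave an edgeR adjusted p of 0.29. A count over the whole gene cannot show a small deletion.

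The docetaxel libraries held 31585500 to 40801679 counts. In the knockout-labelled docetaxel libraries Gm23935, an abundant noncoding RNA feature, took 0.856%, 0.294% and 1.51% of counts, against 0.192% to 0.220% in the wild-type docetaxel libraries. Within groups, library deviations followed transcript GC content, with Spearman's rho across 10408 genes from −0.661 to 0.631 in the knockout-labelled and from −0.489 to 0.398 in the wild-type docetaxel libraries. With a correction for the GC trend 1311 genes were called after docetaxel, against 915 without it, and the part of Gm23935 in the results was not tested. Markers of mammary carcinoma epithelium summed to 3302 to 4437 CPM in the 6 docetaxel libraries, with Krt8 at 575, 728 and 652 CPM in wild-type and 572, 750.4 and 652 CPM in knockout-labelled libraries. Leukocyte markers (12 genes listed) summed to 4.26 to 5.93 CPM, endothelial markers (7 listed) to 0.598 to 1.14 CPM and fibroblast markers (8 listed, with Lum at 0) to 24.6 to 25.9 CPM in wild-type and 18.8 to 21.03 CPM in knockout-labelled docetaxel libraries. Pgr was too low to be tested, while Esr1 stood at 20.4 to 30.8 CPM and Erbb2 at 74.3 to 94.2 CPM in the 6 docetaxel libraries. Bulk data cannot tell fewer cells of a type from less RNA per cell. The labels of wild-type DMSO library 1 conflict, since a description calls it knockout and the other fields wild type. It was kept as wild type, and its levels of Ap1m2 and Dsc2 below are those of the other wild-type libraries.

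After docetaxel 915 genes (5.89% of those tested) differed between the genotypes (edgeR, adjusted p below 0.05), 390 (2.51%) higher and 525 (3.38%) lower in the knockout-labelled cells. At least 2-fold differences numbered 299 (1.92%), 160 higher (1.03%) and 139 lower (0.895%). The median log2 difference over all tested genes was 0.01. The 3 libraries of 1 genotype lay wholly above or below those of the other for 3896 genes (25.1%). The count after docetaxel was 483 without wild-type docetaxel library 3, 558 without wild-type docetaxel library 2 and 536 without knockout-labelled docetaxel library 3. Under DMSO 2475 genes (15.9%) were called, 1030 (6.63%) higher and 1445 (9.3%) lower, and 1274 without knockout-labelled DMSO library 1. Of the 915 genes, 679 were also called under DMSO in the same direction, 282 higher and 397 lower, which is 74.2% of the docetaxel calls and 27.4% of the DMSO calls. Of the 1793 genes called only under DMSO, 1556 had the same sign after docetaxel and 6 were called in the test of the change in difference. A loss of the difference was therefore not shown for most of them. Their median absolute log2 difference was 0.19 after docetaxel and 0.50 under DMSO, the value that chose them. Among the 299 genes at least 2-fold apart after docetaxel the share already called under DMSO in the same direction was 83.6%, and among the 616 smaller calls it was 69.6%. In 431 of the 679 the difference was smaller after docetaxel, with a median absolute log2 difference of 0.71 against 0.83 under DMSO. Across all 15538 tested genes, which are not independent replicates, the log2 differences after docetaxel and under DMSO correlated with a Pearson's r of 0.568 and a Spearman's rho of 0.376. Over the 915 genes, chosen by 1 of these 2 differences, r was 0.924.

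No gene was called after docetaxel, not called under DMSO and called in the interaction, the test of whether the genotype difference itself differed between the treatments, by edgeR. The interaction called 11 genes (0.0708%), 8 with a positive (0.0515%) and 3 with a negative value (0.0193%), and 1714 at an unadjusted p below 0.05. Both counts depended on the libraries and the processing. Without wild-type DMSO library 1 the interaction called 444 genes and that class held 24. With no filter on low counts and all libraries kept they were 421 and 30. DESeq2 placed 13 genes in the class, among them Tgfbr2, Calr, Gstm1 and Tnfsf9 with values below. Another 233 genes were called after docetaxel and not under DMSO without an interaction call, so that a difference particular to docetaxel was not shown for them. Of these, 208 had the same sign under DMSO, and 88 had an unadjusted interaction p below 0.05. The remaining 3 genes, Ifi27, Hdgfl3 and Gm24245, were called in both treatments with opposite signs.

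**Figure D1:**
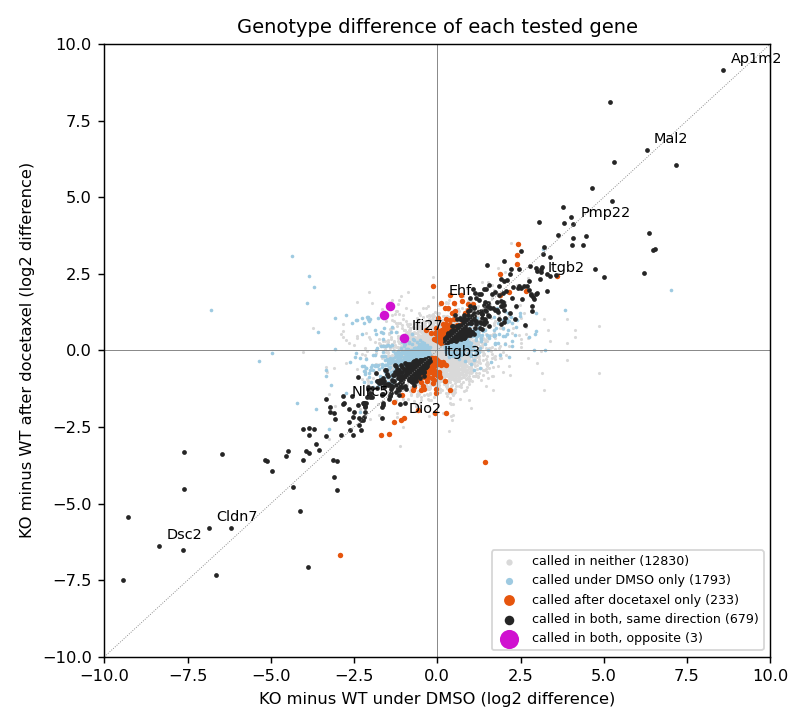
Log2 difference between knockout-labelled (KO) and wild-type (WT) cells for each of the 15538 tested genes, under DMSO (horizontal) and after docetaxel (vertical), coloured by the edgeR calls. The 679 genes called in both treatments with the same sign lie along the dotted line of equal differences, and 3 genes called with opposite signs lie above 0 after docetaxel and below 0 under DMSO.

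The largest differences were between a gene at or near 0 in 1 genotype and clearly present in the other. Ap1m2, which encodes the medium chain of the epithelial clathrin adaptor AP-1B, was at 0.0565, 0 and 0 CPM in wild-type and at 11.3, 12.5 and 14.8 CPM in knockout-labelled cells after docetaxel. That is 2 against 1398 counts, a ratio of 673 (exact 95% interval 186 to 5560, counting error only; edgeR adjusted p = 5.92e-09). Under DMSO the ratio was 429 (147 to 2084), from 3 against 1414 counts. Mal2, a membrane protein of transcytosis in epithelia, was at 0.311, 0.365 and 0.313 CPM in wild-type and 35.8, 25.8 and 30.7 CPM in knockout-labelled docetaxel libraries. Its log2 difference was 6.53 ± 0.20 after docetaxel (edgeR adjusted p = 6.29e-11) and 6.29 under DMSO.

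In the opposite direction stood 3 genes of adhesion and mechanosensing. Dsc2, a desmosomal cadherin, was at 11.3, 9.89 and 11.7 CPM in wild-type and at 0.137, 0.115 and 0.126 CPM in knockout-labelled cells after docetaxel, at a log2 difference of −6.39 ± 0.28 (edgeR adjusted p = 2.84e-09). Piezo2, a stretch-activated ion channel gene, was at 16.9, 12.7 and 15 CPM in wild-type and 0.32, 0.288 and 0.157 CPM in knockout-labelled libraries, a log2 difference of −5.81 ± 0.35 (edgeR adjusted p = 6.8e-08). Cldn7, a claudin of epithelial junctions, was at 7.11, 8.88 and 7.42 CPM in wild-type and 0.114, 0.115 and 0.189 CPM in knockout-labelled libraries, a log2 difference of −5.80 ± 0.26 (edgeR adjusted p = 2.84e-09). All 3 were at least as far apart under DMSO, with log2 differences of −8.36 for Dsc2, −6.19 for Piezo2 and −6.87 for Cldn7. Their knockout-labelled docetaxel libraries held 14, 29 and 15 counts, so these fold sizes are imprecise. Ap1m2 lies on chromosome 9 and Cldn7 on chromosome 11.

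The promoters of Ap1m2 and Cldn7, as listed by RefSeq on GRCm38.p6 from 250 bases before to 50 after the start, are shown because each gene was near 0 in 1 genotype and present in the other. CpG dinucleotides, the sites of DNA methylation in mammals, are in capitals, and each is written 5′ to 3′ on the strand of its gene (Ap1m2, chr9:21312284-21312583, minus strand, and Cldn7, chr11:69964529-69964828, plus strand).
Ap1m2 promoter: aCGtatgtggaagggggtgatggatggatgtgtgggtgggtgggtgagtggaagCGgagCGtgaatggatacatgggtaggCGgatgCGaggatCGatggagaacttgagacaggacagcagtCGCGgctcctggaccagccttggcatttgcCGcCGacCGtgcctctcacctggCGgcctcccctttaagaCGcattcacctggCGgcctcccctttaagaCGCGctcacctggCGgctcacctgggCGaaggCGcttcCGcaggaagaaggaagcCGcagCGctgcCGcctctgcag
Cldn7 promoter: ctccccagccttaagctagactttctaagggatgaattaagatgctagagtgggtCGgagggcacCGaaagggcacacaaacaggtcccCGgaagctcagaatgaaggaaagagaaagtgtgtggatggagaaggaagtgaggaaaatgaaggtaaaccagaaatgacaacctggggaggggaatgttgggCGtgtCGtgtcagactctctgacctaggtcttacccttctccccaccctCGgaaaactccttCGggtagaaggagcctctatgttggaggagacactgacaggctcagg
The Ap1m2 promoter holds 23 CpG and the Cldn7 promoter 7, against a median of 21 over the first promoters of 10445 tested genes. Of those promoters 59.9% had as many as Ap1m2 or fewer, and 15.5% as many as Cldn7 or fewer. Methylation was not measured.

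Other genes with large positive differences, each with non-overlapping groups as the rule that picked them required, were less extreme. Pmp22, a myelin protein that also sits in epithelial junctions, was at 3.19, 2.14 and 3.04 CPM in wild-type and 46, 49.6 and 49.4 CPM in knockout-labelled docetaxel libraries (log2 difference 4.11 ± 0.23, edgeR adjusted p = 4.14e-08). Iqgap2, a scaffold protein of the actin cytoskeleton, was at 1.44, 1.07 and 1.37 against 15.5, 17.3 and 16.9 CPM (log2 difference 3.68 ± 0.15, edgeR adjusted p = 1.78e-09). These levels differed by about as much under DMSO, with log2 differences of 4.08 for Pmp22 and 4.09 for Iqgap2. Arrdc4, an arrestin-domain adaptor, had 15 against 1050 counts after docetaxel, a ratio of 67.4 (40.7 to 121, counting error only), and Zfp979, a zinc-finger gene, 9 against 725 counts, a ratio of 77.5 (40.6 to 170). Zfp979 belongs to a family of similar genes, whose reads can be shared, and its 3 knockout-labelled libraries were uneven at 10.3, 4.03 and 4.18 CPM. Tc2n, Ubqln2, Zswim5, Sema3c and Gas7 had log2 differences of 2.67 to 4.89. Ubqln2 is a ubiquitin-binding shuttle of the proteasome and Sema3c a secreted guidance factor.

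Large negative differences included genes of transport, metabolism and signalling. Kif21b, a kinesin motor that also limits microtubule growth, was at 16.3, 22.6 and 20.6 CPM in wild-type and 0.617, 1.55 and 1.82 CPM in knockout-labelled docetaxel libraries (log2 difference −3.94 ± 0.28, edgeR adjusted p = 6.94e-07). Ldhb, the heart-type lactate dehydrogenase subunit, was at 5.11, 5.56 and 4.55 against 0.434, 0.518 and 0.629 CPM (log2 difference −3.27 ± 0.25, edgeR adjusted p = 7.2e-07). Pear1, a receptor of the EGF-repeat type known from platelets, was at 33, 28.9 and 31.8 against 6.78, 6.65 and 6.67 CPM (log2 difference −2.22 ± 0.11, edgeR adjusted p = 5.8e-09). In each gene all wild-type libraries were above all knockout-labelled ones, as the rule that picked these genes required. Gstm2, a glutathione transferase with near-identical relatives, had a log2 difference of −2.58 ± 0.14 and Bspry, an epithelial protein, of −3.57 ± 0.22. Epsti1, an interferon-responsive gene, had one of −4.12 ± 0.26, and Impact, which inhibits the kinase GCN2, of −2.21 ± 0.18. Dio2, the deiodinase that activates thyroid hormone, was at 10.2, 5.31 and 5.26 CPM in wild-type and 1.94, 0.95 and 1.32 CPM in knockout-labelled libraries after docetaxel (log2 difference −2.29 ± 0.32, edgeR adjusted p = 0.000469). Of the 24 differences named as largest, among protein-coding genes of at least 5 CPM with groups apart, only Dio2 was not called under DMSO. There its difference was −1.08 (edgeR adjusted p = 0.0537).

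**Figure D2:**
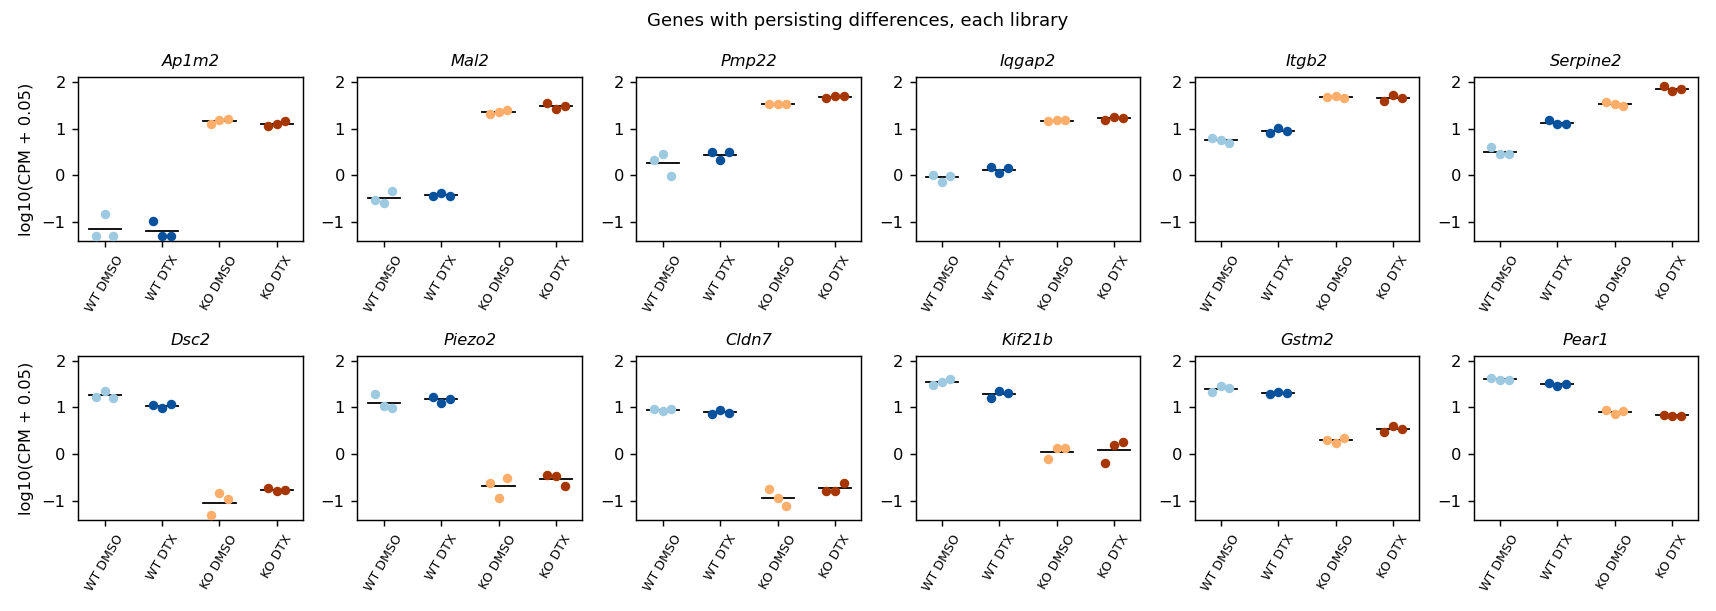
Level of 12 genes in each library, as log10 of CPM plus 0.05, in wild-type (WT) and knockout-labelled (KO) cells under DMSO or after docetaxel (DTX), with points for the 3 libraries and a bar for their mean on that scale. Wild-type libraries lie apart from knockout-labelled ones in every panel under both treatments. For all but Itgb2 and Serpine2, groups apart after docetaxel were a condition of being picked.

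After docetaxel some integrin beta chains were called, and the known alpha partners of integrin beta 3 were not. Over all tested genes 2.51% were called higher and 3.38% lower. Of 8 tested integrins of the alpha v and RGD-binding group, 0 were higher and 2 lower after docetaxel (Itgb3 and Itgb6), with a median log2 difference of −0.13. Itgb6, the epithelial partner of alpha v that activates TGF-beta, was at 15.4, 14.8 and 16.3 CPM in wild-type and 7.74, 6.16 and 7.52 CPM in knockout-labelled docetaxel libraries, a log2 difference of −1.12 ± 0.18 (edgeR adjusted p = 0.00185). Its groups did not overlap, and it was also lower under DMSO, with a log2 difference of −1.48. Itgav, the alpha v chain, was at 249.5, 243 and 236 CPM in wild-type and 261, 233 and 243 CPM in knockout-labelled libraries, with overlapping groups (log2 difference 0.02 ± 0.09, edgeR adjusted p = 0.948). Under DMSO Itgav was called lower (log2 difference −0.28, edgeR adjusted p = 0.0399). Itga2b, the alpha IIb chain, stood at 0.913 to 3.12 CPM after docetaxel (log2 difference −0.62 ± 0.37, edgeR adjusted p = 0.425).

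Of 8 tested collagen-binding and leukocyte integrins and ligands, 2 were higher and 1 lower, against 2.51% and 3.38% of all tested genes. Itgb2, the beta chain of the leukocyte integrins, was at 7.91, 10.3 and 8.79 CPM in wild-type and 38.9, 51 and 45.3 CPM in knockout-labelled libraries (log2 difference 2.32 ± 0.13, edgeR adjusted p = 3.4e-08). The leukocyte marker list did not follow it, with sums of 4.26 to 5.62 CPM in wild-type and 4.31 to 5.93 CPM in knockout-labelled docetaxel libraries. Itgb7, another beta chain of lymphocyte integrins, was at 7.54, 9.38 and 8.53 against 13.3, 18.6 and 19.9 CPM (log2 difference 1.02 ± 0.17, edgeR adjusted p = 0.00212). Vcam1, an adhesion ligand of alpha 4 integrins, was at 20.6, 26.9 and 23.6 against 7.95, 8.46 and 8.21 CPM (log2 difference −1.53 ± 0.14, edgeR adjusted p = 9.33e-06). All 3 were called under DMSO in the same direction. None of 14 laminin-binding integrins and hemidesmosome genes was called after docetaxel by edgeR, DESeq2 or limma-voom, with 1 at an unadjusted edgeR p below 0.05 and a median log2 difference of −0.03.

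The matrix ligands and focal adhesion genes that were called were lower, in counts that stand against 3.38% called lower over all tested genes. Of 13 tested matrix ligands of alpha v beta 3, 2 were lower. Tnc, which encodes the matrix protein tenascin C, was at 7.45, 7.36 and 6.14 CPM in wild-type and 3.61, 3.57 and 4.21 CPM in knockout-labelled docetaxel libraries (log2 difference −0.88 ± 0.14, edgeR adjusted p = 0.00172). It was not called under DMSO, at −0.28, and its interaction did not pass (edgeR adjusted p = 0.347). Mfge8, a secreted RGD protein that bridges dying cells to phagocytes, had a log2 difference of −0.36 ± 0.10. Of 37 focal adhesion and actin genes 3 were lower, Ptk2b (−0.51 ± 0.10), Src (−0.40 ± 0.10) and Zyx (−0.30 ± 0.08), which encode 2 tyrosine kinases and a scaffold of focal adhesions. The list's median log2 difference was 0.01, as over all genes.

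Proteases and their inhibitors were called in both directions, against 2.51% higher and 3.38% lower over all tested genes. Of 21 tested matrix metalloproteinases and inhibitors, 1 was higher and 3 lower. Adam19, a membrane-bound protease, was at 17.3, 14.5 and 16.8 CPM in wild-type and 6.85, 7.34 and 5.79 CPM in knockout-labelled libraries (log2 difference −1.28 ± 0.13, edgeR adjusted p = 1.46e-05). Mmp3, the secreted protease stromelysin 1, was at 51.2, 56 and 51.7 against 29.2, 19.9 and 20.2 CPM (log2 difference −1.20 ± 0.21, edgeR adjusted p = 0.00393). The third, Mmp14, a membrane-bound collagenase, had a log2 difference of −0.47, and Mmp15 was higher by 0.50. Serpine2, a secreted inhibitor of thrombin and plasminogen activators, was at 15, 12.2 and 12.7 CPM in wild-type and 80.3, 64.5 and 68.8 CPM in knockout-labelled libraries (log2 difference 2.42 ± 0.14, edgeR adjusted p = 3.4e-08). It was called under DMSO in the same direction. Of 24 genes for collagens and collagen-modifying enzymes 3 were lower, the lysyl oxidase gene Loxl3 and the collagen genes Col6a1 and Col4a6, at log2 differences of −1.13, −1.71 and −1.45.

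In the TGF-beta list 1 of 28 tested genes was higher and 2 were lower, beside 2.51% and 3.38% of all tested genes. Tgfbr2, the type II receptor, was at 108, 112 and 116 CPM in wild-type and 143, 144 and 146 CPM in knockout-labelled docetaxel libraries (log2 difference 0.37 ± 0.07, edgeR adjusted p = 0.00561). Under DMSO its levels were 101, 109 and 114 and 106, 108 and 110.1 CPM, a log2 difference of 0.00 (edgeR adjusted p = 0.995), but the interaction did not pass (edgeR adjusted p = 0.235). Id3, a target gene of the related BMP signals, was at 88.8, 84.6 and 81.5 against 54, 61.6 and 55.9 CPM (log2 difference −0.57 ± 0.09, edgeR adjusted p = 0.00111). Ltbp1, which stores latent TGF-beta in the matrix, had a log2 difference of −0.29 ± 0.07.

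Epithelial regulators were called higher more often than lower, and junction genes were called in both directions. Over all tested genes 2.51% were called higher and 3.38% lower after docetaxel. Of 29 tested epithelial transcription factors and trafficking genes, 6 were higher (Ap1m2, Ehf, Elf3, Esrp1, Grhl1 and Rab25) and 1 was lower (Tfap2c), and all but Ehf were called under DMSO in the same direction. The median log2 difference of the list was 0.16 after docetaxel and 0.26 under DMSO. Rab25, a small GTPase of apical recycling, was at 11, 13.3 and 11.5 CPM in wild-type and 27.8, 30.3 and 30.3 CPM in knockout-labelled docetaxel libraries (log2 difference 1.30 ± 0.10, edgeR adjusted p = 7.2e-07). Esrp1, an epithelial splicing regulator, was at 104, 92.1 and 97.7 against 176, 159 and 169 CPM (log2 difference 0.78 ± 0.09, edgeR adjusted p = 6.42e-05). Ehf, an epithelial transcription factor of the ETS family, was at 1.61, 2.14 and 1.85 CPM in wild-type and 7.4, 4.55 and 4.5 CPM in knockout-labelled libraries (log2 difference 1.56 ± 0.23, edgeR adjusted p = 0.000605). Under DMSO Ehf was nearly silent in both genotypes, at 0.139, 0.103 and 0.101 and 0.128, 0.13 and 0.118 CPM, and its interaction did not pass (edgeR adjusted p = 0.41).

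Of 19 desmosome and adherens junction genes 4 were higher and 2 lower, against 2.51% and 3.38% of all tested genes. The lower ones were Dsc2 and Cdh3 (P-cadherin, −3.62), and the higher ones were Epcam, Evpl, Dsg2 and Nectin1, at log2 differences of 0.29 to 0.73. Epcam, an epithelial adhesion molecule, was at 313, 349.8 and 309 CPM in wild-type and 400.1, 486 and 458 CPM in knockout-labelled docetaxel libraries. Cdh1, E-cadherin, was at 544, 620.1 and 575 against 506, 554 and 554 CPM and did not pass (log2 difference −0.11 ± 0.09, edgeR adjusted p = 0.614). Of 11 keratins Krt19 was higher, at 86.1, 135 and 107 against 163, 259 and 224 CPM (0.97 ± 0.17), and Krt16 lower (−0.85 ± 0.16). Krt16 has close relatives with which reads can be shared. Among 21 EMT factors and mesenchymal markers 3 were higher and 4 lower. Vim, vimentin, was at 281, 336 and 325 CPM in wild-type and 197, 236 and 221 CPM in knockout-labelled libraries (log2 difference −0.53 ± 0.13, edgeR adjusted p = 0.0213). Zeb2, a repressor of epithelial genes, was at 29.6, 23 and 25.1 against 18.6, 15.2 and 16 CPM (log2 difference −0.64 ± 0.12, edgeR adjusted p = 0.00544), while the receptor gene Fgfr1 was higher (0.80 ± 0.13). The sum of 8 fibroblast markers, given above, was also lower in the knockout-labelled docetaxel libraries. Of the 4 markers tested only Pdgfra was called, and it also belongs to the 21 EMT factors and mesenchymal markers. Its mean was 19.25 CPM in wild-type and 12.28 CPM in knockout-labelled docetaxel libraries (log2 difference −0.65 ± 0.11, edgeR adjusted p = 0.00222). Among the 4 log2 differences 2 were above 0 and 2 below, with a median of −0.08. The part of fibroblast content in the EMT values was not tested.

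Most interferon-stimulated genes were called lower in knockout-labelled cells under DMSO, but most did not pass after docetaxel. Of 59 tested genes, 1 was higher and 9 lower after docetaxel and 49 did not pass, against 53 lower under DMSO. Over all tested genes 3.38% were lower after docetaxel and 9.3% under DMSO. The median log2 difference of the list was −0.36 after docetaxel and −1.09 under DMSO. After docetaxel 53 of the 59 values were below 0, and the groups did not overlap in 31 with the knockout-labelled libraries lower, against 13.2% of all tested genes. The difference between the treatments was positive in all 59, with an unadjusted interaction p below 0.05 in 43, and 2, Ifi27 and Sp100, passed after adjustment (edgeR). The summed level of the 59 genes was 6915 to 8426 CPM in wild-type and 5748 to 6700 CPM in knockout-labelled docetaxel libraries, and the corresponding ranges under DMSO were 3938 to 5000 and 2126 to 2835 CPM. The count of lower genes after docetaxel depended on the analysis. It was 14 with DESeq2, 29 with no filter on low counts, 4 without wild-type docetaxel library 2, and 5 without knockout-labelled docetaxel library 1 or 3.

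The genes lower after docetaxel were Gbp3, Gbp7, Herc6, Ifit1, Iigp1, Lgals3bp, Mx1, Phf11d and Tgtp1. Lgals3bp, a secreted glycoprotein, was at 279.9, 316 and 289.9 CPM in wild-type and 113, 130.4 and 135 CPM in knockout-labelled docetaxel libraries (log2 difference −1.23 ± 0.12, edgeR adjusted p = 1.13e-05). Gbp3, a guanylate-binding GTPase, was at 105, 144 and 115 against 71.8, 85.4 and 79.1 CPM (log2 difference −0.62 ± 0.14, edgeR adjusted p = 0.0143). Iigp1, an immunity-related GTPase, was at 25.9, 35.2 and 24.7 against 12.6, 12.7 and 12.2 CPM (log2 difference −1.19 ± 0.20, edgeR adjusted p = 0.00246). In all 3 the wild-type libraries were the higher ones. The Gbp, Ifit and Tgtp genes have close relatives, so the split of reads within these families is uncertain. Phf11d, which has near-identical neighbours, was at 23.9, 38 and 27 against 4.18, 4.52 and 4.53 CPM (log2 difference −2.75 ± 0.31, edgeR adjusted p = 9.79e-05). Members that did not pass include Isg15, a ubiquitin-like modifier, at 149.9, 251 and 202 against 114, 215 and 168 CPM with overlapping groups (log2 difference −0.28 ± 0.27, edgeR adjusted p = 0.673). Oas3, a sensor of double-stranded RNA from a family with shared sequence, was at 205, 269 and 246 against 218, 303 and 289 CPM (log2 difference 0.17 ± 0.21, edgeR adjusted p = 0.754), where its difference under DMSO had been −0.99 (edgeR adjusted p = 0.00745).

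The ISRE, searched as 2 copies of GAAA with any 2 bases between them on both strands of the RefSeq promoters (GRCm38.p6), stood in 24 of the 45 interferon-stimulated genes with a promoter entry (53.3%), against 3.76% of all 10445 tested genes with one. It was in 4 of the 7 such genes called lower after docetaxel. Over all called genes the share was 6.46% of the 356 lower and 3.47% of the 288 higher ones. The AP-1 motif, TGANTCA on both strands, was in 11% of the lower, 5.56% of the higher and 6.64% of all promoters. A match is a description of sequence and not of binding. The stretches around the ISRE are shown for the 4 genes called lower and for 2 that were not called, to let the element be compared between them, together with Cldn7 and the chemokine gene Cxcl10, the named genes called lower whose promoter holds it. Capitals mark the ISRE, written on the strand of the gene, and a match on the other strand shows TTTC in place of GAAA.
Ifit1 (chr19:34640772-34640807, plus strand, called lower): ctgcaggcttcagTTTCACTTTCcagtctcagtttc
Gbp3 (chr3:142559986-142560021, plus strand, called lower): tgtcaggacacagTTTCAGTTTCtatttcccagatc
Gbp7 (chr3:142530270-142530305, plus strand, called lower): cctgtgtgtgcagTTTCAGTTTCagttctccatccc
Tgtp1 (chr11:48992301-48992336, minus strand, called lower): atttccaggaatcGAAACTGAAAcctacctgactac
Isg15 (chr4:156200874-156200909, minus strand, not called): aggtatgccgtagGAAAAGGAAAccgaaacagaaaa
Oas3 (chr5:120777712-120777747, minus strand, not called): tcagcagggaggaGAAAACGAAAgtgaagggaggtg
Cxcl10 (chr5:92349080-92349115, minus strand, called lower): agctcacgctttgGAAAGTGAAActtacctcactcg
Cldn7 (chr11:69964623-69964658, plus strand, called lower): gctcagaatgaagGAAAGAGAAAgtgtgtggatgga
Ifit1, Gbp3 and Isg15 hold more than 1 match, and 1 is shown for each. The 4 genes called lower and the 2 not called all hold the element within 104 bases before the start.

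**Figure D3:**
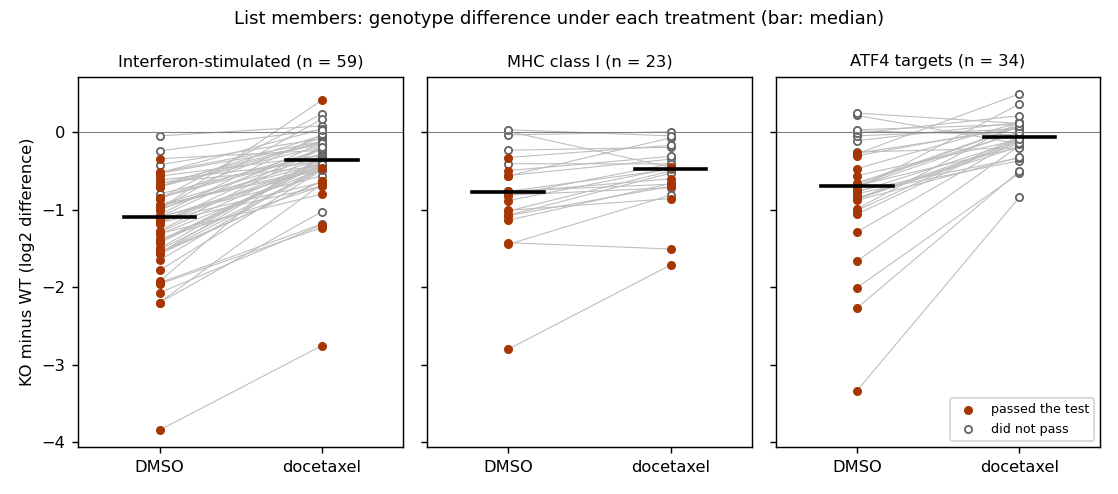
Log2 difference between genotypes (knockout-labelled minus wild type) of each tested member of 3 gene lists under DMSO and after docetaxel, joined by lines, with filled points for genes that passed the edgeR test and a bar for the list's median. The median was −1.09 under DMSO and −0.36 after docetaxel for 59 interferon-stimulated genes, −0.77 and −0.48 for 23 class I genes, and −0.69 and −0.06 for 34 ATF4 targets.

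Of the regulators of that response, 1 of 25 tested ligands, receptors and nucleic acid sensors was higher and 2 were lower after docetaxel. Shares over all tested genes were 2.51% and 3.38%. Jak2, a kinase of cytokine receptors, was at 110.3, 104 and 93.9 CPM in wild-type and 174, 131 and 149.6 CPM in knockout-labelled libraries (log2 difference 0.56 ± 0.11, edgeR adjusted p = 0.00475). Samhd1, a nucleotide hydrolase that limits viral DNA synthesis, was at 158, 169 and 153 against 112, 106 and 118 CPM (log2 difference −0.52 ± 0.08, edgeR adjusted p = 0.0014), and Adar, an RNA-editing enzyme, had a log2 difference of −0.45 ± 0.08.

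Transcripts of MHC class I and antigen processing genes were called lower in part, where 3.38% of all tested genes were lower. Of 23 tested genes 0 were higher and 7 lower after docetaxel, with a median log2 difference of −0.48, and 22 of the 23 values were below 0. With no filter on low counts 17 were lower after docetaxel. Under DMSO 16 were lower, against 9.3% of all tested genes, and 9 without knockout-labelled DMSO library 1. Of the 7 genes lower after docetaxel, 6 were called under DMSO too. Nlrc5, the transactivator of class I genes, was at 35.2, 33.3 and 31.5 CPM in wild-type and 9.66, 9.81 and 11.1 CPM in knockout-labelled docetaxel libraries (log2 difference −1.71 ± 0.12, edgeR adjusted p = 3.6e-07). B2m, the invariant light chain, was at 1197, 1273 and 1149.6 against 762, 689 and 782 CPM (log2 difference −0.70 ± 0.14, edgeR adjusted p = 0.00742). H2-D1, a class I heavy chain, was at 686, 992 and 843 against 400.0, 527 and 467 CPM (log2 difference −0.85 ± 0.15, edgeR adjusted p = 0.00365). In each gene the knockout-labelled libraries were all below the wild-type ones. The others were H2-K1 (−0.60), H2-Q7 (−1.50), the immunoproteasome subunit Psmb10 (−0.67) and the chaperone Calr (−0.45 ± 0.09). Class I heavy chains share sequence, so the split of reads among them is uncertain. Of 10 tested class II and checkpoint ligand genes only Tnfsf9, the ligand of the costimulatory receptor 4-1BB, was called, lower by 0.47 on the log2 scale, and Cd274 (PD-L1) had a log2 difference of −0.22 ± 0.18 (edgeR adjusted p = 0.61).

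Secreted mediators of inflammation split in both directions, while 2.51% of all tested genes were higher and 3.38% lower. Il1a, which encodes the alarmin interleukin 1 alpha, was at 41.5, 41.1 and 46.3 CPM in wild-type and 158, 99.3 and 119 CPM in knockout-labelled docetaxel libraries (log2 difference 1.54 ± 0.14, edgeR adjusted p = 4.35e-06). Under DMSO its levels were 4.41, 4.54 and 4.22 and 11.5, 14.1 and 12.1 CPM, with a log2 difference of 1.52 at lower levels. Lcn2, the iron-sequestering lipocalin 2, was at 570.0, 655 and 691 against 1022, 941 and 1041 CPM after docetaxel (log2 difference 0.65 ± 0.11, edgeR adjusted p = 0.002). Chil1, a chitinase-like secreted protein, was at 38.8, 41.9 and 44 against 70.3, 65.1 and 60.2 CPM (log2 difference 0.65 ± 0.14, edgeR adjusted p = 0.00936), with a difference of 0.07 under DMSO (edgeR adjusted p = 0.834). Its interaction did not pass by edgeR. The groups did not overlap in any of these 3 genes, and the knockout-labelled libraries were the higher ones. Of 18 secreted innate defence genes 3 were higher, Lcn2, Chil1 and the iron-binding protein gene Ltf, and 1, Acod1, was lower.

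Acod1, the enzyme that makes itaconate, was at 19.5, 28.9 and 27.8 CPM in wild-type and 11.7, 12.8 and 12.6 CPM in knockout-labelled docetaxel libraries (log2 difference −1.04 ± 0.19, edgeR adjusted p = 0.00406). Cxcl10, a chemokine for T cells, was at 108, 137 and 115 against 68.7, 81.7 and 86.7 CPM (log2 difference −0.60 ± 0.13, edgeR adjusted p = 0.0101), and Cx3cl1, a membrane-bound chemokine, had a log2 difference of −0.45 ± 0.08. They were the 2 called among 12 tested chemokines outside the neutrophil group, and both were lower. Of 30 colony-stimulating factors, interleukins and their receptors 3 were higher and 6 lower, against 2.51% and 3.38% of all tested genes. Il15, a growth factor of natural killer cells, was at 10.8, 12.7 and 10.4 against 4.64, 5.93 and 6.29 CPM (log2 difference −1.01 ± 0.21, edgeR adjusted p = 0.00749). Tslp, an epithelial cytokine, was at 183, 132 and 133 against 111, 56.4 and 67 CPM (log2 difference −0.94 ± 0.21, edgeR adjusted p = 0.0179), and Csf3, the neutrophil growth factor G-CSF, had a log2 difference of −0.53 ± 0.10. Of the neutrophil chemokines only Ppbp was called, higher by 0.87 at 1.85 to 5.14 CPM. Of 21 NF-kB subunits and feedback genes 1 was higher (Nfkbiz, 0.35 ± 0.10) and 1 lower (Traf1, −0.62 ± 0.14).

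Genes tied to the action of the drug were called in both directions, and their counts stand against 5.89% called over all tested genes. Of 15 tubulins 0 were higher and 2 lower. Tubb2b, a beta tubulin, was at 9.97, 13.9 and 13.8 CPM in wild-type and 4.64, 5.96 and 5.32 CPM in knockout-labelled docetaxel libraries (log2 difference −1.25 ± 0.17, edgeR adjusted p = 0.000276). Tubg2, a gamma tubulin of microtubule nucleation, had a log2 difference of −0.81 ± 0.16. Among 30 microtubule regulators Mapt, the protein tau, was higher at 3.56, 3.88 and 4.49 against 6.46, 8.84 and 6.89 CPM (log2 difference 0.89 ± 0.17, edgeR adjusted p = 0.00544), and so was Map2 (0.44 ± 0.10). Mapre2, a plus-end binding protein, was lower (−0.65 ± 0.11), and so was Tacc2 (−0.32). Of 12 drug efflux and related transporters 1 was higher and 3 lower. Abcg2, an efflux pump of many drugs, was at 4.6, 4.52 and 3.81 against 11.5, 8.29 and 12.3 CPM (log2 difference 1.31 ± 0.19, edgeR adjusted p = 0.000638), and under DMSO at 1.6, 1.45 and 0.878 against 5.66, 5.34 and 4.64 CPM. The lower ones were Abcg1 (−1.58), Slco4a1 (−0.71 ± 0.12) and Abcc5 (−0.45 ± 0.09).

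None of 44 mitosis and spindle checkpoint genes was called after docetaxel by edgeR, DESeq2 or limma-voom, with 1 at an unadjusted edgeR p below 0.05 and a median log2 difference of 0.08. Of 50 DNA replication genes 1 was lower, Gins3 of the replicative helicase (−0.57 ± 0.15), and the list's median was 0.03, against 12 higher and a median of 0.38 under DMSO. Its summed level was 3753 to 3865 CPM in wild-type and 3723 to 3854 CPM in knockout-labelled docetaxel libraries, ranges that overlap. Under DMSO 6.63% of all tested genes were higher. The list's ranges there were 2466 to 3677 CPM in wild-type and 3518 to 3977 CPM in knockout-labelled libraries and also overlapped. None of 25 replication-dependent histones, 49 cytosolic ribosomal proteins or 13 mitochondrially encoded genes was called after docetaxel by edgeR. Their counts at an unadjusted edgeR p below 0.05 were 1, 3 and 1. DESeq2 called 1 ribosomal protein gene and limma-voom none in these lists. Of 27 p53 pathway genes only Tnfrsf10b, a death receptor for TRAIL, was called (log2 difference −0.39 ± 0.08), and its ligand Tnfsf10 was lower by 0.79. Among 31 BCL2 family and death pathway genes 3 were higher and 3 lower, against 2.51% and 3.38% of all tested genes. Gsdmd, the pore-forming protein of pyroptosis, was at 8.16, 12.8 and 10.8 CPM in wild-type and 2.28, 2.99 and 3.71 CPM in knockout-labelled libraries (log2 difference −1.83 ± 0.21, edgeR adjusted p = 7.1e-05). Mlkl, the pore-forming protein of necroptosis, was at 73.2, 80.7 and 68.5 against 46.5, 53.3 and 54 CPM (log2 difference −0.53 ± 0.09, edgeR adjusted p = 0.00225). The survival gene Bcl2 was at 24.9, 26.9 and 26.4 against 38.1, 36.7 and 33.8 CPM (log2 difference 0.47 ± 0.10, edgeR adjusted p = 0.00717), its antagonist Bcl2l11 was higher by 0.36, and Casp1, an inflammatory caspase, was higher at only 0.576 to 1.10 CPM in the knockout-labelled libraries.

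Stress genes under ATF4, a transcription factor of amino acid and ER stress, did not pass after docetaxel. None of 34 tested ATF4 targets and amino acid metabolism genes was called after docetaxel by edgeR, DESeq2 or limma-voom, with 2 at an unadjusted edgeR p below 0.05 and a median log2 difference of −0.06, although 25 were lower under DMSO, where the median was −0.69. Under DMSO 9.3% of all tested genes were lower. The difference between the treatments had an unadjusted interaction p below 0.05 in 24 of the 34 list members. Their summed level was 2559 to 2773 CPM in wild-type and 2526 to 2761 CPM in knockout-labelled docetaxel libraries. Under DMSO it was 3747 to 4416 and 2653 to 2891 CPM, so that the wild-type DMSO libraries were the ones that stood above the other 3 groups. In these libraries Gm23935 took 0.435% to 3.98% of counts, and the part of that in the result was not tested. Of 20 endoplasmic reticulum stress genes 4 were lower after docetaxel, against 3.38% of all tested genes, and 17 values were below 0. Ern1, the stress sensor IRE1 alpha, was at 90.2, 84.8 and 85.8 CPM in wild-type and 55.2, 56.7 and 51.8 CPM in knockout-labelled libraries (log2 difference −0.67 ± 0.08, edgeR adjusted p = 8.93e-05). Calr, which belongs to this list as well, was at 607, 596 and 578 against 455, 432 and 417 CPM, and under DMSO at 288, 242 and 264 against 287, 252 and 260.3 CPM, a difference of 0.01. Its interaction did not pass (edgeR adjusted p = 0.202). Herpud1, a protein of ER-associated degradation, had a log2 difference of −0.49 ± 0.10, and Dnajc3 one of −0.43.

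Of 31 heat-shock and immediate-early genes 2 were higher and 6 lower. For this and the lists that follow, 2.51% of all tested genes were higher and 3.38% lower. Fos was at 9.49, 11.5 and 10.2 CPM in wild-type and 18.2, 21.1 and 19.8 CPM in knockout-labelled docetaxel libraries (log2 difference 0.92 ± 0.15, edgeR adjusted p = 0.00159). Its relative Fosl1 had a log2 difference of −0.52 ± 0.14, and Egr1, another transcription factor of the immediate response, was at 33.2, 23.3 and 23.9 against 16.5, 14.7 and 13.3 CPM (log2 difference −0.85 ± 0.15, edgeR adjusted p = 0.00337). Of 24 NRF2 targets 3 were higher and 5 lower. Gstm2 was lower and Gstm1 higher (0.66 ± 0.17), but the 2 share sequence and the split of reads between them is uncertain. Nqo1, a quinone reductase, was at 9.23, 9.02 and 9.22 against 6.85, 6.13 and 5.13 CPM (log2 difference −0.60 ± 0.14, edgeR adjusted p = 0.0157). Of 34 glycolysis and hypoxia genes 2 were lower, Adm and Ankrd37, both under 4 CPM. Of 31 genes of cholesterol and fatty acid synthesis only Srebf1 was called (−0.28 ± 0.08). Of the 31 values 25 were below 0, and the list's median was −0.11 after docetaxel and 0.20 under DMSO. The groups did not overlap in 10 with the knockout-labelled libraries lower, against 13.2% of all tested genes. An unadjusted edgeR interaction p was below 0.05 in 11, all with a negative value, and 0 passed after adjustment.

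Signalling genes of mammary development were called in both directions. Shares over all tested genes were 2.51% higher and 3.38% lower. Notch3, a receptor of the Notch family, was at 11.5, 12.4 and 9.87 CPM in wild-type and 22, 23.1 and 22 CPM in knockout-labelled docetaxel libraries (log2 difference 0.98 ± 0.12, edgeR adjusted p = 9.72e-05). Sfrp1, a secreted Wnt inhibitor, was at 14.3, 13.3 and 13.4 against 24.5, 26.2 and 27 CPM (log2 difference 0.92 ± 0.10, edgeR adjusted p = 2.43e-05). Wnt10a, a Wnt ligand, was at 47.2, 53.5 and 53 against 24.7, 27 and 29.7 CPM (log2 difference −0.92 ± 0.10, edgeR adjusted p = 2.61e-05). They belong to a list of 36 Wnt, Notch and Hippo genes with 3 higher and 4 lower, of which 5 were called under DMSO in the same direction. Among 27 tested growth factor ligands and receptors 2 were higher, Nrp1, a co-receptor of VEGF (0.54 ± 0.10), and Erbb3, a receptor of the EGFR family (0.41 ± 0.11). Of surface markers of mammary progenitors Ly6c1 was higher (0.71 ± 0.15) and Procr lower (−0.38 ± 0.10), out of 11.

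The interaction called 11 genes, those whose genotype difference was not the same under the 2 treatments. Ifi27, an interferon-stimulated gene of the mitochondrion, was at 138, 144 and 140.4 CPM in wild-type and 181, 197 and 185 CPM in knockout-labelled docetaxel libraries, where the knockout-labelled ones were higher (log2 difference 0.41 ± 0.09, edgeR adjusted p = 0.00813). Under DMSO it was at 155, 155 and 173 and 73.9, 90.6 and 78.6 CPM, where they were lower (−0.99), and the interaction was 1.403 (edgeR adjusted p = 0.000127). It was the only one of the 11 that kept its interaction call without any single library. For Nlrc5 the difference narrowed from −2.80 under DMSO to −1.71 ± 0.12, with an interaction of 1.09 ± 0.18 (edgeR adjusted p = 0.0409). Lgals9, which encodes galectin 9, was at 219, 274 and 241 against 153, 166 and 177 CPM after docetaxel and 119, 193 and 149 against 27.8, 39.7 and 36.2 CPM under DMSO (interaction 1.59 ± 0.23, edgeR adjusted p = 0.0213). Sp100, a nuclear body protein induced by interferon, was at 75, 97 and 78.8 against 56.3, 67.3 and 62.3 CPM after docetaxel and 33.5, 45.8 and 42.4 against 10.8, 14.1 and 13.9 CPM under DMSO (interaction 1.22 ± 0.19, edgeR adjusted p = 0.0284).

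Another 3 belong to amino acid stress. Atf4, the transcription factor of that response, was at 135, 136 and 149.6 CPM in wild-type and 119.5, 150.4 and 136 CPM in knockout-labelled docetaxel libraries, which overlapped, and at 253, 269.6 and 305 against 150.5, 134 and 127 CPM under DMSO, which did not (interaction 0.95 ± 0.14, edgeR adjusted p = 0.0242). Asns, asparagine synthetase, was at 66.5, 73.4 and 76.6 against 80.7, 75.7 and 80.9 CPM after docetaxel and 138, 187 and 165 against 82, 86.1 and 78.7 CPM under DMSO (interaction 1.12 ± 0.14, edgeR adjusted p = 0.00819). Slc7a5, a transporter of large neutral amino acids, had an interaction of 0.72 ± 0.12 (edgeR adjusted p = 0.0284). In all 3 the wild-type DMSO libraries were above every other library. Where the knockout-labelled cells had been higher under DMSO, the difference shrank for Ltf, from 2.84 to 1.29 ± 0.16, and for Nlrp10, an inflammasome-related gene at 0.608 to 4.67 CPM, from 2.63 to 0.83 ± 0.20. For Clu, the secreted chaperone clusterin, it went from 1.00 to −0.19 ± 0.12. The noncoding gene Gm24245 had an interaction of 2.75 ± 0.43 (edgeR adjusted p = 0.0284) and was highest in the 2 groups in which Gm23935 was also highest. The part of that in its value was not tested.

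**Figure D4:**
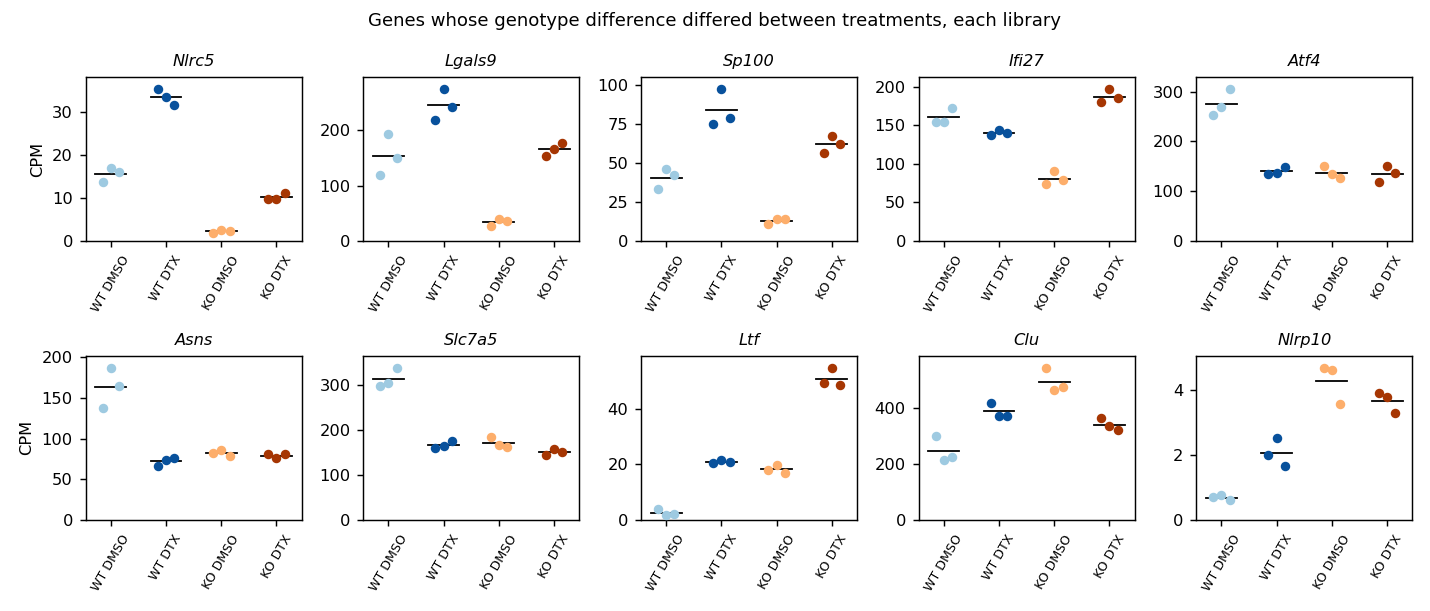
CPM of the 10 protein-coding genes called in the interaction, in each library of wild-type (WT) and knockout-labelled (KO) cells under DMSO or after docetaxel (DTX), with points for libraries and a bar for the group mean, on axes from 0. Nlrc5, Lgals9 and Sp100 were lower in knockout-labelled libraries by less, in log2 terms, after docetaxel, Atf4, Asns and Slc7a5 were high in wild-type DMSO libraries, and Ifi27 crossed over.

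Of the protein-coding genes called lower after docetaxel, 279 lay on chromosomes 3, 8, 14 and 18 and 223 on all the others. These 4 chromosomes were picked after their medians were seen, so no test was made. They held 2020 tested protein-coding genes, of which 279 (13.8%) were lower and 41 (2.03%) higher. On the other 16 chromosomes 2.12% of 10537 genes were lower and 336 (3.19%) higher. The median log2 difference was −0.21 on chromosome 3, −0.18 on 8, −0.22 on 14 and −0.20 on 18, and 0.04 over the other 16. Under DMSO, in other libraries, the medians were −0.27, −0.16, −0.26 and −0.27. Between 72.9% and 83.9% of the genes of each of the 4 had a value below 0.

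The shift was spread along chromosomes 3, 14 and 18, in which all 24 windows of 10 Mb with at least 20 genes had a negative median. On chromosome 8 the first 4 windows, up to 40 Mb, had medians of 0.06 to 0.12, and Fgfr1 and Sfrp1, both higher, lie there. The 7 windows with enough genes from 40 to 120 Mb had medians of −0.29 to −0.20, and that stretch holds Nlrc5, Calr, Herpud1, Il15, Mlkl, Cx3cl1 and Nqo1, which were lower, and Mmp15, which was higher. The median deviation of a library from the mean of all 12 on chromosome 3 was 0.11 to 0.14 in the wild-type and −0.11 to −0.01 in the knockout-labelled docetaxel libraries. On chromosome 14 it was 0.10 to 0.12 and −0.14 to −0.08, and on the other 2 the genotypes did not overlap either. The lower calls on the 4 chromosomes were mostly smaller, with a median of −0.47 against −0.85 elsewhere, and 235 of the 279 were below 2-fold. The other 44 reached 2-fold, against 87 elsewhere. Of the 12 negative differences named as largest, Dsc2, Piezo2 and Impact lie on chromosome 18 and Epsti1 and Phf11d on 14. Gstm2 and Pear1 lie on chromosome 3, while Cldn7, Kif21b, Bspry, Ldhb and Dio2 lie on none of the 4. Of the interferon-stimulated genes called lower 4 of 9 lie on these chromosomes, and the median of the list without its members there was −0.31. So do 5 of 6 lower calls among heat-shock and immediate-early genes, 3 of 4 among endoplasmic reticulum stress genes, 4 of 6 among cytokine genes, 4 of 5 among NRF2 targets and 3 of 7 among class I genes. Over all protein-coding genes called lower it was 279 of 502. Tested members there were 10 of 59 interferon-stimulated, 10 of 31 heat-shock and immediate-early and 3 of 20 endoplasmic reticulum stress genes. For cytokine genes, NRF2 targets and class I genes they were 6 of 30, 8 of 24 and 5 of 23. The cause of the shift was not tested.

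**Figure D5:**
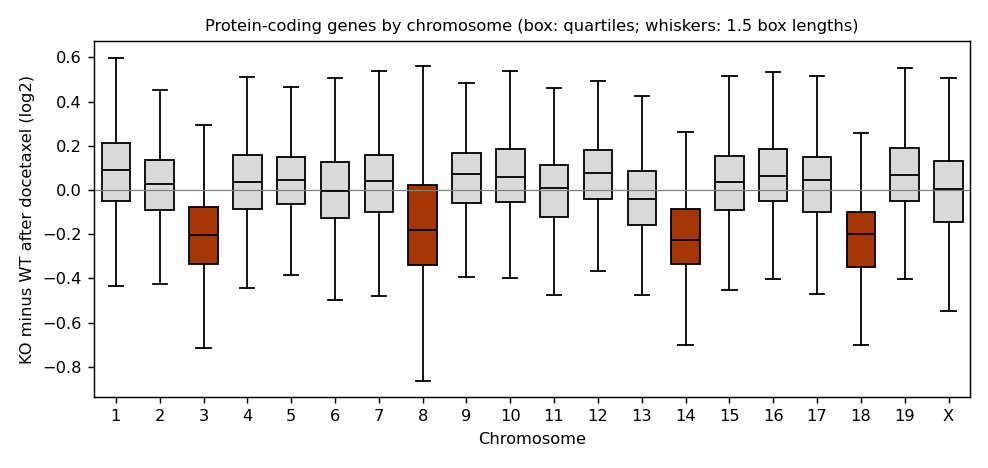
Log2 difference between knockout-labelled (KO) and wild-type (WT) cells after docetaxel for tested protein-coding genes, by chromosome, with boxes for the quartiles, lines for the medians and points beyond the whiskers left out. Chromosomes 3, 8, 14 and 18, in colour, have medians of −0.22 to −0.18, and the other medians lie between −0.04 and 0.09.

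Several named differences are close to the threshold. Of 104 named genes called after docetaxel, 76 remained called when any 1 of the 6 docetaxel libraries was left out. The other 28 lost the call without at least 1 of them, with an edgeR adjusted p of up to 0.20 (Tjp1), namely Abcc5, Cxcl10, Epcam, Erbb3, Evpl, Fosl1, Gins3, Gm24245, Gstm1, Herpud1, Ltbp1, Ly6c1, Map2, Mfge8, Mmp15, Mycl, Nfkbiz, Nlrp10, Nqo1, Procr, Src, Srebf1, Tjp1, Tnfsf10, Tnfsf9, Traf1, Tslp and Zyx. The 24 differences named as largest and the integrin genes Itgb2, Itgb3 and Itgb6 were among those that remained called. Other genes given above, such as Vim, Gbp3, Chil1, B2m and Bcl2, lie outside the 104 and are not covered by these counts.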

How the data were processed

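RNA was sequenced from 12 cultures of 4T1 cells in 4 groups of 3 libraries. The submitters' processing notes name STAR 2.5.1a, featureCounts 1.4.6-p5, Subread and bcl2fastq, and the deposited values are whole-number read counts per gene, not normalised by the authors. For the counting, genome build and strand setting were not given in the sources used here. Of 40757 entries, 351 repeated another in symbol and all counts and were dropped. Genes were filtered with edgeR's filterByExpr, scaled by TMM, fitted over all 4 groups with edgeR 4.0.16 (quasi-likelihood test, robust) in R 4.3.3, and called at a Benjamini-Hochberg adjusted p of 0.05 over 15538 genes. DESeq2 1.42.0 and limma-voom (limma 3.58.1), other scalings, filters, a GC correction and left-out libraries were alternatives. On simulated data for the docetaxel comparison (15222 genes) the test recovered 30.8%, 82.1% and 97.1% of log2 differences of 0.5, 1 and 2. These were put into 65, 67 and 68 genes not at the lowest levels, and 5.37% of the calls were false. The simulated counts varied independently between libraries, without the GC trend of the real ones. The simulated shares may therefore not hold for the real calls. Gene positions come from GENCODE M21 (GRCm38), and promoters from RefSeq.

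The members and gene lists were chosen with earlier results of these data known. The genes named are Itgb3 and its partners, the 12 largest called differences in each direction among protein-coding genes of at least 5 CPM in the higher group with groups apart, the 6 per direction that persist most strongly, and at most 3 genes per list that were called and reached 5 CPM. The 11 interaction genes and any other genes were named after their values were seen. Some items are not reported here. The depth after docetaxel was 31585500 to 40801679 counts per library.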

Additional observations from a re-analysis of the deposited data

Results flagged for a closer look

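The genotype difference itself differed between docetaxel and DMSO in 11 genes by edgeR's interaction test, and these are given as log2 interactions, the difference after docetaxel minus that under DMSO. It was positive for Gm24245 (2.75), Lgals9 (1.59), Ifi27 (1.403), Sp100 (1.22), Asns (1.12), Nlrc5 (1.09), Atf4 (0.955) and Slc7a5 (0.721). It was negative for Nlrp10 (−1.805), Ltf (−1.55) and Clu (−1.19). When each of the 12 libraries was left out in turn, the call was kept in 12 fits for Ifi27, 10 for Asns, 8 for Clu and Lgals9, 6 for Atf4 and Slc7a5, 5 for Sp100, 4 for Ltf and Gm24245, 3 for Nlrc5 and 1 for Nlrp10.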

How the results depend on the processing

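Leaving out 1 library at a time, the genes called after docetaxel ranged from 483 to 1095, those under DMSO from 1274 to 3284, the interaction from 1 to 444, persisting genes from 393 to 703 and genes called only after docetaxel with an interaction call from 0 to 24. Interferon-stimulated genes called lower after docetaxel ranged from 4 to 13, and class I genes lower under DMSO from 9 to 17. DESeq2 gave 165 interaction genes, 13 called only after docetaxel and 14 interferon-stimulated genes. With no filter on low counts these were 421, 30 and 29, with 17 class I genes and 3 ATF4 targets lower after docetaxel. A GC correction gave 30 interaction genes. Leaving out both the second wild-type DMSO and the third knockout-labelled docetaxel library gave 576 genes after docetaxel, 1288 under DMSO, 1 interaction gene, 425 persisting genes and 5 interferon-stimulated genes. The cause of these changes was not tested. Same-numbered docetaxel libraries had deviations correlated at 0.677, 0.452 and −0.022, so the numbers were not taken as pairs. A replicate block gave 974 genes after docetaxel, 51 interaction genes, and 23 interferon-stimulated and 14 class I genes lower after docetaxel. With a GC correction as well the block gave 1486 genes, 117 interaction genes, 1043 persisting genes, 4 called only after docetaxel, and 29 and 15 in these lists. Among named genes the log2 difference turned only where it was near 0. Without 1 library it ranged from −0.128 to 0.031 for Atf4, with 0.003 without wild-type docetaxel library 3, and from −0.026 to 0.061 for Itgav. No gene called after docetaxel both as reported and under an alternative changed sign, and the medians of chromosomes 3, 8, 14 and 18 stayed below 0 in every alternative.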
